A study of Mus musculus with 3 samples.

Results

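The Toll-like receptor genes described here are Tlr1, Tlr2, Tlr3, Tlr4, Tlr5, Tlr6, Tlr7, Tlr8, Tlr9 and Tlr13, which were taken by gene symbol and are 10 of 55536 annotated genes and 10 of 22028 protein-coding genes in the tables. Each of the 10 symbols matched a single gene. RNA was measured by ribosomal RNA-depleted total RNA sequencing of the chromatin fraction of mouse bone marrow-derived macrophages, which are primary cells grown out of bone marrow. All cells were of strain C57BL/6J and had been given lipid A, the part of bacterial lipopolysaccharide that TLR4 senses, at 100 ng/ml for 120 min. The libraries form 1 group of 3 numbered replicates with the same donor label. Sex and age were not collected, per the labels. The starting RNA was 1 µg in replicate 1, 250 ng in replicate 2 and 500 ng in replicate 3. Untreated macrophages were not analysed here, so no value below is a response to lipid A. Nothing in the labels says whether separate cultures or animals lay behind the replicates, so p-values measure only the spread between these libraries, which may be technical.

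Toll-like receptors are membrane proteins that sense microbial molecules through leucine-rich repeats and signal through a cytoplasmic TIR domain. TLR1, TLR2, TLR4, TLR5 and TLR6 act mainly at the cell surface, where TLR2 pairs with TLR1 or TLR6 to sense bacterial lipopeptides. TLR3, TLR7, TLR8, TLR9 and TLR13 sit in endosomes and sense nucleic acids, and they need the chaperone UNC93B1 to get there. RNA bound to chromatin is rich in transcripts still being made, so levels in this fraction are not those of mature mRNA in the whole cell.

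The gene totals, rounded gene by gene, were 19751037, 20372838 and 21984516 expected counts in replicates 1, 2 and 3. Protein-coding genes held 18.0%, 23.7% and 24.3% of all TPM, a level per transcript length scaled to a fixed total. All 8 of 8 macrophage markers, among them Adgre1, Csf1r and Lyz2, reached at least 1 TPM in every library of the main tables. No marker of B cells, plasmacytoid or conventional dendritic cells, T and NK cells, neutrophils, or epithelial and stromal cells did so there. With the other deposited quantifier, described below, 1 marker each of plasmacytoid dendritic cells, of T and NK cells and of neutrophils did. In the main tables the summed level of the 5 B cell markers ran from 0.07 to 0.60 TPM. That of the 5 plasmacytoid dendritic cell markers ran from 0.63 to 1.04 TPM. With the other quantifier these sums ran from 0.76 to 1.09 TPM and from 2.87 to 5.31 TPM. In these bulk libraries, fewer cells that express a gene and less RNA per cell cannot be told apart. Replicate 2 stood apart. The 8 mitochondrially encoded genes had a median departure from the other libraries of 3.51 on the log2 scale there, and the 12 cytosolic ribosomal protein genes one of 1.52, against 0.07 over all tested genes.

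Several of these genes carry sequence that decides how reads can be assigned to them, and these stretches are shown first. Tlr1 and Tlr6 lie next to each other on the minus strand of chromosome 5, with 18467 nt between them, and their coding sequences were identical at 73.6% of aligned positions, the highest of all 45 pairs of members. They held 6 identical coding stretches of at least 50 nt, with 748 nt in all, between coding positions 1294 and 2085 of the 2385 nt of Tlr1. The longest, of 229 nt, lies at chr5:64925537-64925765 in Tlr1 and at chr5:64953828-64954056 in Tlr6 (mm10), inside the single coding exon of each gene. It is printed because a read that falls wholly inside it cannot be given to either gene by its sequence.
Tlr1 and Tlr6, shared coding stretch: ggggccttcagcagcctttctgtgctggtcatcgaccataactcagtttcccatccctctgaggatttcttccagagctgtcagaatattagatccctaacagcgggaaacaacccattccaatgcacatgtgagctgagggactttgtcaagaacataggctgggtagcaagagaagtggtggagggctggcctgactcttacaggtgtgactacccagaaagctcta

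Tlr1, Tlr7 and Tlr8 also have short annotated isoforms of under 1000 nt that carry bases absent from the exons of their long coding isoforms. Short isoforms of Tlr3, Tlr4, Tlr5, Tlr6 and Tlr13 carry such bases as well and are not printed. The short Tlr1-203, a processed transcript of 419 nt, has 224 such bases in an intron at chr5:64933101-64933324 (mm10, minus strand). Capitals mark the 108 bases covered by 50 nt windows that also occur, on either strand, in transcripts of other genes. The marked bases are a run of CT and GT repeats. Windows of all Tlr1 transcripts matched 308 other gene entries, Tlr6 among them. A gene matched on both strands counts as separate entries there.
Tlr1-203, own intronic bases: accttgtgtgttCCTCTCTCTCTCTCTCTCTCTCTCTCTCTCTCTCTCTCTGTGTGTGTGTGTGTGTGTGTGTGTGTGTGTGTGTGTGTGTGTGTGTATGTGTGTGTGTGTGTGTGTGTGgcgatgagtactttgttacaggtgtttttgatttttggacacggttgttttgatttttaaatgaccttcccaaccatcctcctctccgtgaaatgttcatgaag

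The short Tlr7-206, of 261 nt, has 119 such bases in an intron at chrX:167317680-167317798 (mm10, minus strand), and the short Tlr8-204, of 387 nt, has 112 at chrX:167259354-167259465 (mm10, minus strand). None of their 50 nt windows occurred in a transcript of another gene, so no base is in capitals. They are shown because most of the difference between the deposited quantifiers for Tlr7 and Tlr8 fell on short isoforms, these among them.
Tlr7-206, own intronic bases: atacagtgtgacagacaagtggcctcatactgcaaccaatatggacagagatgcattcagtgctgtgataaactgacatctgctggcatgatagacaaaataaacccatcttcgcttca
Tlr8-204, own intronic bases: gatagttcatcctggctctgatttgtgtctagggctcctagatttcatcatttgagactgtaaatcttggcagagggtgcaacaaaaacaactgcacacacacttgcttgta

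Elsewhere the members were distinct in sequence. Tlr2, Tlr5, Tlr7, Tlr8, Tlr9 and Tlr13 shared no 50 nt window with any other gene. Tlr1 shared 15.4% of its windows, of which the 454 held in common with Tlr6 made up 13.6% of all its windows, and Tlr6 shared 12.3%. Tlr3 shared 5.30%, all with Gm45542, an antisense gene on the opposite strand of its start region. Gm45542 was listed at 0 counts in every library of the main tables. The other quantifier described below put Gm45542 at 0.136, 0.178 and 0.878 TPM in replicates 1, 2 and 3. Tlr4 shared 0.216%. Most members keep the coding sequence in 1 large exon: at least 98.5% of it for 8 of the 10 genes, against 68.3% for Tlr3 and 89.7% for Tlr4. Exons covered from 5.41% of the gene span for Tlr4 to 81.1% for Tlr9.

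The surface receptors held the 2 highest genes of the family. Tlr2, at chr3:83836272-83841767 (mm10, minus strand), encodes the shared partner of the lipopeptide receptors. It was at 38.3, 80.0 and 41.6 TPM in replicates 1, 2 and 3. Its mean was 53.3 ± 23.2 TPM (SD, n = 3), rank 874 of the protein-coding genes. Replicate 2 was the high library and the other two lay close together. Tlr2 has 1 annotated isoform, so its gene level did not depend on splitting reads among isoforms. It shared no 50 nt window with another gene. With the other quantifier described below, Tlr2 was at 32.7, 50.4 and 32.3 TPM.

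Tlr1, at chr5:64924679-64933563 (mm10, minus strand), encodes the partner of TLR2 for triacylated lipopeptides. It was at 33.1, 41.5 and 44.2 TPM, a mean of 39.6 ± 5.76 TPM (SD, n = 3). Its long isoforms, the 2 protein-coding ones, summed to 25.7, 26.9 and 25.8 TPM, a mean of 26.1 ± 0.665 TPM (SD, n = 3). They thus barely differed between libraries in TPM of the main tables. With the other quantifier described below they were at 24.1, 18.1 and 21.4 TPM. In the main tables the short Tlr1-203 supplied the difference in TPM, with 7.47, 14.6 and 18.4 TPM from 37, 51.8 and 72.1 expected counts. Scaled counts of the gene, given below, did differ between libraries. This isoform holds the repeat shown above, whose part in its counts was not tested.

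Tlr6, at chr5:64952031-64960097 (mm10, minus strand), encodes the partner of TLR2 for diacylated lipopeptides. It was far lower than its neighbour, at 1.45, 3.10 and 2.27 TPM. The ratio of Tlr1 to Tlr6 within a library was 22.8, 13.4 and 19.4 on gene TPM, and 17.7, 10.3 and 11.4 over isoforms of at least 1000 nt. In the main tables the gap between Tlr1 and Tlr6 was thus over 10-fold in every library. With the other quantifier described below the ratio was 16.5, 8.50 and 10.7 over the long isoforms. Both levels are uncertain to the extent that reads of the identical stretches were shared out by estimation.

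Tlr4, at chr4:66827584-66930284 (mm10, plus strand), encodes the receptor for the lipid A given to these cells. It was at 5.62, 6.53 and 6.26 TPM, a mean of 6.14 ± 0.467 TPM (SD, n = 3) and rank 5108 of the protein-coding genes. The libraries lay close together, and Tlr4 was below Tlr2 in each of them. The ratio of Tlr2 to Tlr4 was 6.81, 12.3 and 6.65 in the main tables and 3.24, 4.94 and 2.08 with the other quantifier.

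Tlr5, at chr1:182954788-182976044 (mm10, plus strand), encodes the flagellin receptor and was the lowest of the 10 genes. It was at 0.31, 0.37 and 0.38 TPM, from 22, 23 and 25 expected counts. All 3 libraries lay below 1 TPM and below every other member.

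Among the endosomal receptors, Tlr7 was the highest. Tlr7, at chrX:167304929-167330558 (mm10, minus strand), encodes a sensor of single-stranded RNA. It was at 18.2, 33.9 and 23.8 TPM, a mean of 25.3 ± 8.0 TPM (SD, n = 3). Tlr8, its neighbour at chrX:167242696-167264329 (mm10, minus strand) with 40599 nt between them, encodes a related RNA sensor whose coding sequence was identical at 55.1% of aligned positions. It was at 11.1, 23.4 and 23.1 TPM, a mean of 19.2 ± 7.0 TPM (SD, n = 3). Tlr7 exceeded Tlr8 in every library, with ratios of 1.64, 1.45 and 1.03. In replicate 3 the neighbours were nearly level in the main tables, whereas with the other quantifier described below the ratios were 1.93, 1.78 and 2.01.

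Tlr3, at chr8:45395665-45411080 (mm10, minus strand), encodes the sensor of double-stranded RNA that signals through TRIF. It was at 6.75, 9.65 and 14.7 TPM, and replicate 3 was the high library. The level of Tlr3 was split among several of its 9 annotated isoforms, and Tlr3-204 was at 0 TPM in every library of the main tables. The leading isoform, Tlr3-201, held 25.8%, 44.9% and 27.8% of the gene's TPM.

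Tlr13, at chrX:106143204-106160493 (mm10, plus strand), encodes a sensor of bacterial ribosomal RNA. It was at 5.05, 11.5 and 2.46 TPM, from 458, 886 and 172 expected counts. The 3 libraries were well apart, and replicate 3 was the lowest. Tlr9, at chr9:106222598-106226883 (mm10, plus strand), encodes the sensor of unmethylated CpG DNA. It was at 1.08, 1.92 and 0.89 TPM, from 83, 130 and 63 expected counts. Its libraries fell in the same order as those of Tlr13, at a lower level.

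**Figure D1:**
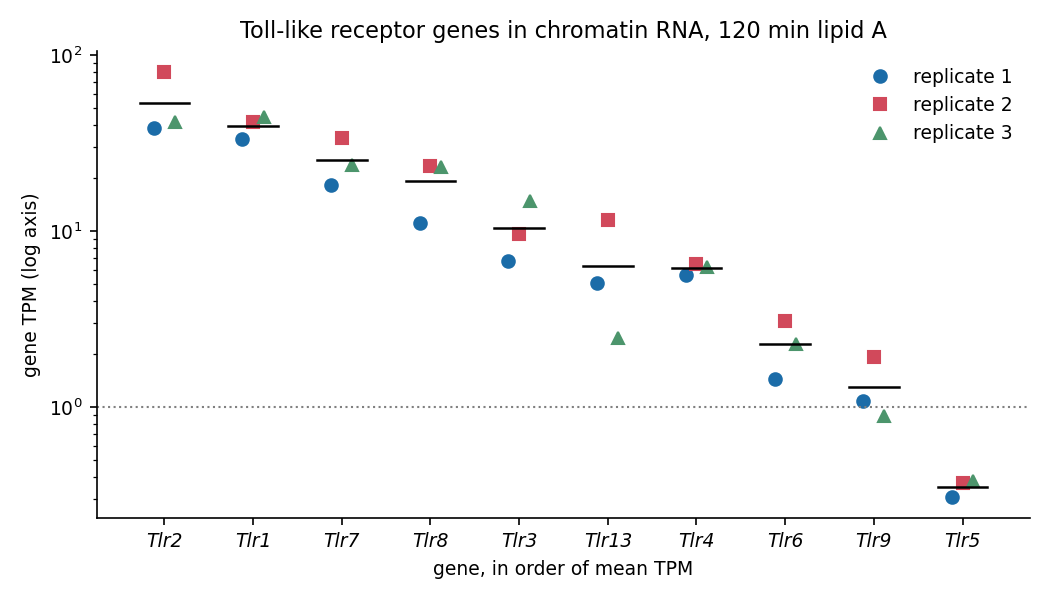
Level of each Toll-like receptor gene in TPM (log axis) in each of the 3 libraries, with a bar at the mean and a dotted line at 1 TPM. Tlr2 and Tlr1 lead with means of 53.3 and 39.6 TPM, Tlr5 lies below 1 TPM in every library, and Tlr13 spans 2.46 to 11.5 TPM.

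Of the 10 genes, 8 reached at least 1 TPM in every library, all but Tlr5 and Tlr9, against 37.4% of protein-coding genes (8233 of 22028). The members' median level was 6.19, 10.6 and 10.5 TPM, beside 0.22, 0.28 and 0.26 TPM for all protein-coding genes. The order by mean level was Tlr2, Tlr1, Tlr7, Tlr8, Tlr3, Tlr13, Tlr4, Tlr6, Tlr9 and Tlr5. Neighbours in this order had overlapping ranges over the libraries except for Tlr4 above Tlr6 and Tlr9 above Tlr5. Tlr2 was above Tlr1 in 2 of 3 libraries, Tlr3 above Tlr13 in 2 of 3, and Tlr13 above Tlr4 in 1 of 3. The mouse family has 2 further members, Tlr11 and Tlr12, which sense profilin of parasites. Tlr11 had 1, 3 and 6 expected counts. Tlr12 had 2, 0 and 0, and a count of 0 allows up to 3 counts. Scaled by each library's total, as CPM, this limit was 0.147 in replicate 2 and 0.136 in replicate 3, and it covers only counting error. Neither was tested.

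The choice of quantifier changed which receptor led. A further set of deposited transcript tables, made from the same libraries with another quantifier, put Tlr7 first at 68.5 TPM on average, with 44.8, 57.7 and 102.9 TPM in replicates 1, 2 and 3. Tlr1 followed at 48.9 TPM, Tlr2 at 38.5 TPM and Tlr8 at 35.6 TPM. Tlr7 was 2.71 times its level in the main tables, Tlr4 1.95 times and Tlr8 1.86 times. The median ratio over protein-coding genes at 1 TPM or more was 1.24, and Tlr2 lay below it at 0.722.

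For Tlr7 and Tlr8 these differences lay in the short isoforms. For Tlr7, isoforms under 1000 nt held 10.7%, 18.9% and 6.57% of the gene's TPM in the main tables and 68.8%, 69.2% and 83.4% with the other quantifier. The isoform Tlr7-206 alone was given 1, 3.37 and 1.19 expected counts in the main tables and 40.8, 96.6 and 139.7 estimated counts by the other quantifier. For Tlr8, the short isoforms held 12.2%, 15.4% and 9.75% in the main tables and 64.5%, 62.6% and 71.8% with the other quantifier. Tlr8-204 was given 1.64, 2.37 and 1.31 expected counts against 81.0, 138.9 and 197.0 estimated counts. The intronic bases of Tlr7-206 and Tlr8-204 are printed above. They do not mark all of the Tlr7 difference, because 2 other short Tlr7 isoforms have 0 bases outside the long coding exons. Tlr7-204 was given 2.51, 1.41 and 0 expected counts against 66.8, 69.3 and 157.3 estimated counts. Tlr7-205 was given 2.80, 6.30 and 1.45 against 29.9, 36.1 and 69.0.

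With isoforms under 1000 nt set aside, a step chosen after these values were seen, the quantifiers came close to 1 order. The main tables then gave 22.0 ± 5.67 TPM for Tlr7 and the other quantifier 16.3 ± 2.00 TPM (SD, n = 3 each). For Tlr8 the values were 16.8 ± 6.11 and 11.6 ± 3.13 TPM (SD, n = 3 each). Tlr2, Tlr1, Tlr7 and Tlr8 took ranks 1 to 4 in that order with either quantifier, and only Tlr4 and Tlr3 changed places. The ratio of the quantifiers over these long isoforms lay between 0.676 and 0.882 for every member but Tlr4, where it was 1.41.

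The sums by location followed the same pattern. The 5 surface genes summed to 78.8, 131.5 and 94.7 TPM and the 5 endosomal genes to 42.2, 80.4 and 64.9 TPM in the main tables. With the other quantifier the surface sums were 79.7, 104.3 and 121.9 TPM and the endosomal sums 80.7, 105.9 and 171.9 TPM, so the endosomal sum was the higher in every library. Over isoforms of at least 1000 nt the surface sum was the higher in every library with either quantifier, with means of 88.0 against 54.1 TPM in the main tables and 70.5 against 38.6 TPM with the other quantifier.

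**Figure D2:**
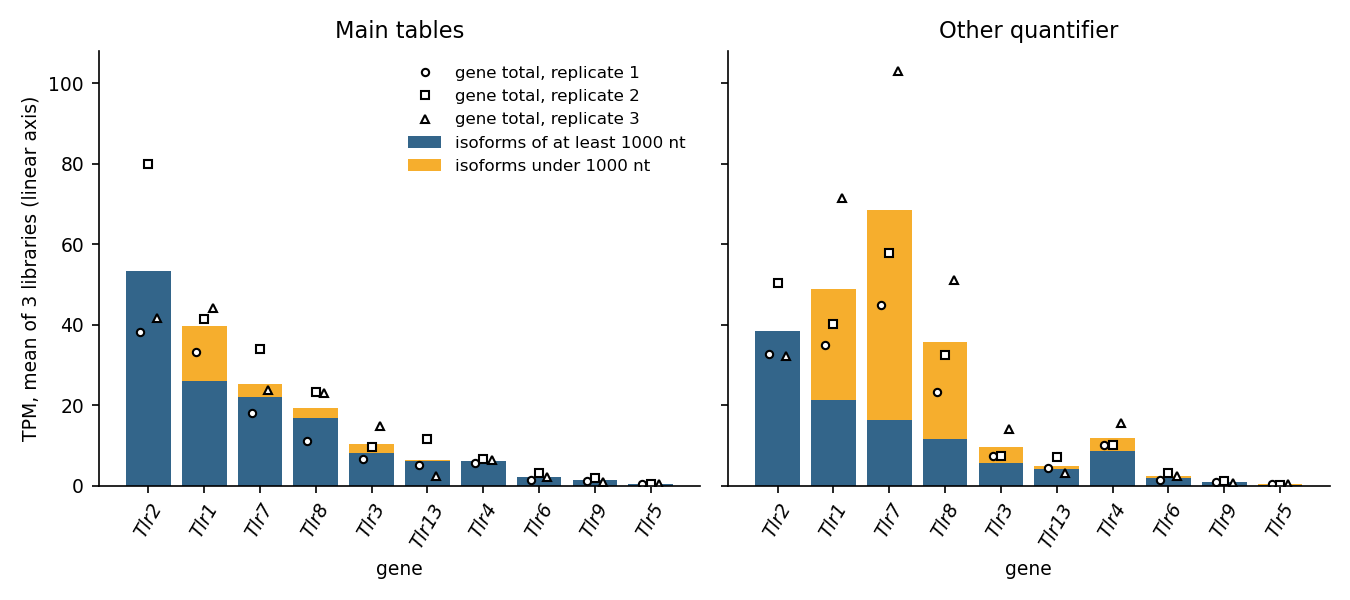
Mean TPM of each gene (linear axis) in the main tables and with the other quantifier, split into isoforms of at least 1000 nt and isoforms under 1000 nt, with points for the gene total in each library. Short isoforms hold 13.1% of Tlr7 in the main tables and 76.2% with the other quantifier, while Tlr2 and Tlr9 have none.

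Isoform choice also differed within the long transcripts. Tlr8-201 led in the main tables, with 2.56, 10 and 12.7 TPM, beside 7.19, 9.76 and 8.15 TPM for Tlr8-202. The other quantifier gave Tlr8-201 at most 7.7e-07 TPM and Tlr8-202 8.25, 12.2 and 14.4 TPM. These isoforms have the same coding sequence and differ outside it, and which of them was made cannot be read from these tables. For Tlr4, the main tables gave every read to Tlr4-201. The other quantifier also gave 3.04, 3.98 and 5.64 TPM to Tlr4-202, whose last exon carries the annotated end of the gene to position 66930284, against 66842800 for Tlr4-201.

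The spread between libraries was then tested gene by gene. Expected counts of 9 of the 10 genes varied more than counting error allows, by a chi-square test against equal abundance with trimmed-mean (TMM) scaled library sizes and Benjamini-Hochberg adjustment over 14200 genes. The same call was made for 68.8% of all genes tested, so a call by itself sets a gene little apart. Tlr5 was the exception, at an adjusted p of 0.869 and a mean count too low for a small change to be detectable. The largest spread was that of Tlr13, with a coefficient of variation of 71.5% on scaled counts, against a median of 17.0% in the 2834 protein-coding genes within 2-fold of its count. Of those genes, 97.2% varied less. Tlr9 followed at 41.4%, against a median of 25.3% in genes of like count, of which 80.4% varied less. Tlr2 was next at 39.9%, against a median of 14.9% in genes of like count, of which 93.8% varied less.

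Tlr13 gave 25.5, 43.4 and 7.14 scaled CPM in replicates 1, 2 and 3. The highest library was 6.08 times the lowest, and the adjusted p of the chi-square test was 1.49e-129. The long isoform Tlr13-201 carried 171 of the 172 expected counts in replicate 3 and 458 of 458 in replicate 1. Tlr2 gave 141, 227 and 105 scaled CPM, a 2.16-fold range with an adjusted p of 1.49e-237 in that test. Tlr9 gave 4.62, 6.36 and 2.61, a 2.43-fold range with an adjusted p of 6.42e-08 in that test. On this scale these 3 genes fell in 1 order of libraries, replicate 2 above 1 above 3. Tlr7 fell in the same order, at 75.6, 100.1 and 71.2 scaled CPM.

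The members other than Tlr2, Tlr9 and Tlr13 moved less. The highest library was between 1.3 times the lowest, for Tlr4, and 1.54 times, for Tlr8, among Tlr1, Tlr3, Tlr4, Tlr6, Tlr7 and Tlr8. Several of these calls rested on 1 library. Without replicate 3 the adjusted p of Tlr3 rose from 4.87e-15 to 0.905 and that of Tlr9 to 0.123, in the chi-square test over all genes. Without replicate 2 it was 0.648 for Tlr6 and 0.158 for Tlr7, and without replicate 1 it was 0.0758 for Tlr8. Tlr1, Tlr2, Tlr4 and Tlr13 were called with any library left out. With gene totals in place of trimmed-mean scaling the adjusted p of Tlr4 was 0.408 in the same test.

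Tlr1 ran in opposite directions on the 2 scales. Its scaled CPM were 90.7, 74.3 and 64.1 in replicates 1, 2 and 3, highest in replicate 1, whereas its gene TPM was lowest there. Over isoforms of at least 1000 nt its TPM was also lowest in replicate 1, by a small margin, at 25.7 against 26.9 and 25.8. The protein-coding share of all TPM was lowest in replicate 1 as well, at 18.0%, and its part in the contrast was not tested.

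**Figure D3:**
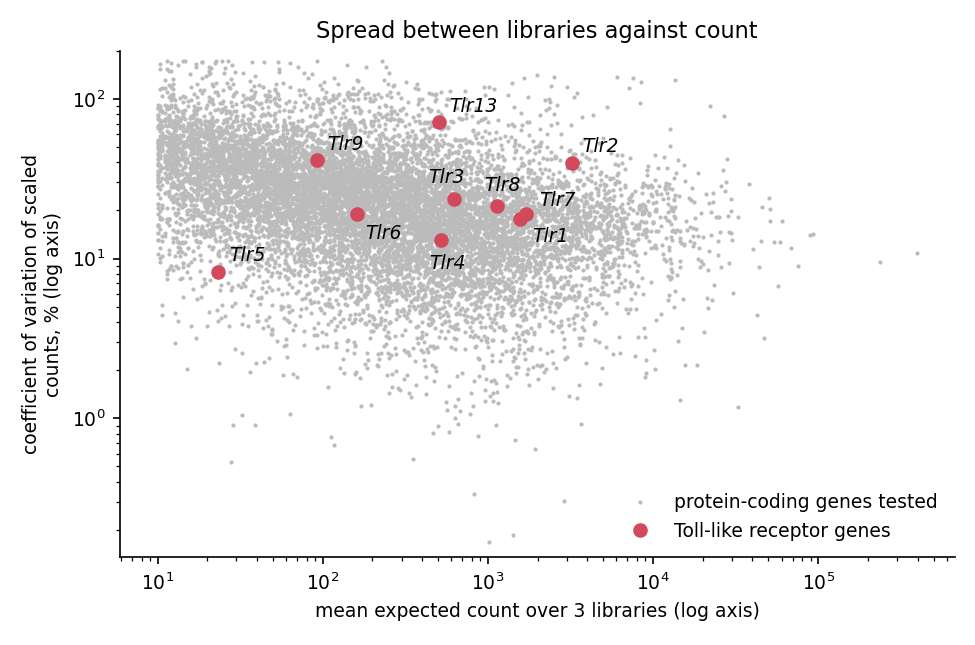
Coefficient of variation of scaled counts over 3 libraries, in percent, against mean expected count for protein-coding genes tested (grey) and Toll-like receptor genes (red), both on log axes. Tlr13 at 71.5%, Tlr9 at 41.4% and Tlr2 at 39.9% lie above most genes of like count, and Tlr5 at 8.30% lies below.

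Replicate 2 was the highest library for 6 of the 10 genes, Tlr2, Tlr6, Tlr7, Tlr8, Tlr9 and Tlr13, and it was the highest for 35.2% of all genes tested. Its departure from the mean of the other libraries, on log2(scaled CPM + 0.1), was 1.68 for Tlr13, 0.90 for Tlr2 and 0.85 for Tlr9. It was between 0.37 and 0.45 for Tlr8, Tlr6 and Tlr7. It was 0.04 for Tlr4, -0.0015 for Tlr5 and -0.04 for Tlr1, and Tlr3 was at -0.19. Other scalings moved Tlr4 to -0.033 and Tlr5 to 0.0041, so no direction is read for these genes. The members' median was 0.40, beside 0.12 for protein-coding genes tested, 1.52 for ribosomal protein genes and 0.89 for the 8 macrophage markers. Ribosomal protein and mitochondrially encoded genes were thus high in the same library as these receptor genes, and the part of that library's makeup in the receptor values was not tested. In replicate 3 the departure was -2.20 for Tlr13, -1.03 for Tlr9 and -0.77 for Tlr2, and 0.55 for Tlr3.

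**Figure D4:**
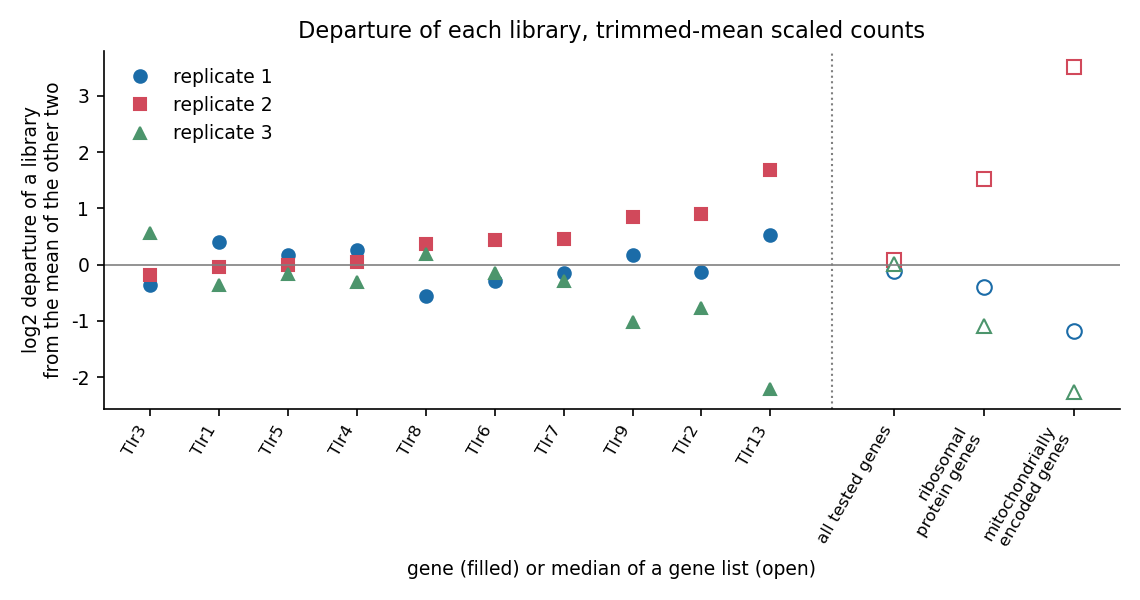
Log2 departure of each library from the mean of the other two, for each Toll-like receptor gene (filled) and as the median of all tested, ribosomal protein and mitochondrially encoded genes (open). Tlr13, Tlr2 and Tlr9 are high in replicate 2 and low in replicate 3, as are the medians of the ribosomal protein and mitochondrially encoded genes, whereas Tlr3 is highest in replicate 3.

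The proximal promoters of these genes were read for 4 short motifs, searched on both strands in 250 bases before and 50 after each start. The RefSeq promoter table (GRCm38.p6) matched 8 of the 10 genes, with 10 promoters, and had no entry for Tlr4 or Tlr7. The NF-kB motif GGGANTTCC, read by the factor that TLR signalling activates, occurred in the promoter of Tlr2 alone among the members and in 1.68% of all 32851 promoters. The interferon response core GAAANNGAA occurred in promoters of Tlr6 and Tlr8 and in 8.56% of all. The PU.1 core GAGGAA, read by a factor of myeloid identity, occurred in promoters of Tlr1, Tlr8, Tlr9 and Tlr13 and in 28.3% of all. The AP-1 motif TGANTCA occurred in that of Tlr9 and in 7.81% of all. A match is a string of letters and not a measured binding site.

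On scaled CPM the libraries of Tlr2, Tlr9 and Tlr13 fell in 1 order, which Tlr7 shared, but Tlr7 had no promoter entry. The 250 bases before the RefSeq start are printed for Tlr2, Tlr9 and Tlr13, with matches in capitals. They lie at chr3:83841609-83841858 (minus strand) for Tlr2, chr9:106222348-106222597 (plus strand) for Tlr9 and chrX:106143025-106143274 (plus strand) for Tlr13 in GRCm38.p6. For Tlr2 and Tlr13 the printed bases run past the annotated gene starts, at 83841767 and 106143204, into the gene. Distances below are counted from the RefSeq start and not from the annotated gene start. In Tlr2 the capitals are overlapping NF-kB matches on both strands, the first 172 bases before the RefSeq start. In Tlr9 they are a PU.1 match 112 bases and an AP-1 match 58 bases before the RefSeq start, and in Tlr13 a PU.1 match 83 bases before it. No motif was common to the 3 windows.
Tlr2, upstream: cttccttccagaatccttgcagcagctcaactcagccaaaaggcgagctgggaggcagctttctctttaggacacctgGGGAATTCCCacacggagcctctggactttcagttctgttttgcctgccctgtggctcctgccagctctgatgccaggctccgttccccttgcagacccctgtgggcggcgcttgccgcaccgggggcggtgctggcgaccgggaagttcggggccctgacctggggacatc
Tlr9, upstream: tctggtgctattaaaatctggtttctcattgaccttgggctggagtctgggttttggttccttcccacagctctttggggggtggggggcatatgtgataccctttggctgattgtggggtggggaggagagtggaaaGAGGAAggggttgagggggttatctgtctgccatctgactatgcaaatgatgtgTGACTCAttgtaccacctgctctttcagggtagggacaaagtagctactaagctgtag
Tlr13, upstream: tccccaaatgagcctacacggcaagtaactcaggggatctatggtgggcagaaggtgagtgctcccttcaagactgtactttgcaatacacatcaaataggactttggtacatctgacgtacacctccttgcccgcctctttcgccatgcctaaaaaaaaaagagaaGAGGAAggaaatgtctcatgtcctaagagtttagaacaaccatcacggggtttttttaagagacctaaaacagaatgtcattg

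Genes of the receptors' own pathway were read by role. Of 12 chaperone, trafficking and processing genes, 11 could be tested and 11 varied between libraries, and 10 of them were highest in replicate 2. Over all genes tested, 68.8% varied and 35.2% were highest in replicate 2. The highest was Ctsb, a lysosomal cathepsin, at 182, 718 and 217 TPM. Ctsk, another cathepsin, was the lowest in the main tables at 0.29, 0.27 and 0.32 TPM, though not with the other quantifier. Unc93b1, the chaperone of the endosomal receptors, was at 73.7, 117 and 118 TPM and so above every endosomal receptor in the main tables.

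Among 7 co-receptor and ligand-binding genes, 6 could be tested, 5 varied and 5 were highest in replicate 2, beside 68.8% and 35.2% of all genes tested. Cd180, a TLR4-like receptor of B cells and macrophages, was the highest at 49.7, 93.2 and 105 TPM, and Lbp, the plasma lipopolysaccharide-binding protein, the lowest at 0.02, 0.11 and 0.04 TPM. Cd14, which hands lipopolysaccharide to TLR4, was at 32.2, 143 and 17.5 TPM, with replicate 2 the high library.

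Of 6 adaptors of the TIR domain, 5 could be tested, 4 varied and 4 were highest in replicate 2, again beside 68.8% and 35.2% of all genes tested. Pik3ap1, which links receptors to PI3 kinase, was the highest at 149, 125 and 145 TPM, and Sarm1, a TIR protein that cleaves NAD, the lowest at 0.09, 0 and 0 TPM. Of 8 receptor-proximal kinases and ubiquitin ligases, 8 could be tested, 7 varied and 4 were highest in replicate 2, beside the same shares. Peli1, a ubiquitin ligase, was the highest in the main tables at 89.1, 114 and 164 TPM, though not with the other quantifier. Irak4, the first kinase of the MyD88 complex, was the lowest at 3.01, 5.94 and 5.73 TPM. The median departure of replicate 2 was 1.29 for chaperones, 1.13 for co-receptors, 0.22 for adaptors and 0.16 for kinases and ligases, beside 0.40 for the receptors and 0.07 for all tested genes.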

How the data were processed

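RNA was measured in 3 libraries of 1 group, placed by their labels. The authors deposited gene and transcript tables of expected counts and TPM, with genome mm10 and annotation GENCODE M21 per a deposited note. They also deposited transcript tables of estimated counts and TPM from another quantifier, which were summed per gene. The layouts are those of RSEM and kallisto. The sources used here do not give the authors' tools, their versions or whether counting used strand. Reads of a gene and of its antisense partner therefore cannot be told apart.

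Members and lists were chosen with earlier results of these data known. Entries with no annotated gene held 0.845%, 0.282% and 0.179% of counts and were left out. Named genes are the 10 members, Tlr11, Tlr12, and the highest and lowest gene of each pathway list by mean TPM in the main tables. Unc93b1, Cd14 and marker genes were added after their values were seen. Variation was tested on expected counts rounded to whole numbers, for genes with a mean of at least 10, with TMM factors from edgeR 4.0.16 in R 4.3.3 and a chi-square test in scipy 1.17.1, called at an adjusted p under 0.05. The test was checked on simulated counts that held only counting error and planted changes. The check therefore does not cover other spread between libraries. Levels on the log2 scale used a pseudocount of 0.1. Alternatives were DESeq2 1.42.0 size factors, gene totals, no count filter, other TPM thresholds, TPM rescaled to protein-coding genes, a pseudocount of 1, the other quantifier, each library left out and, added after seeing the data, isoforms of at least 1000 nt alone. Coding sequences were aligned with biopython 1.88, and shared sequence was counted in windows of 50 nt of the reference transcripts. Depth was 19751037 to 21984516 counts per library, and floors of 3 counts cover counting error only.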

Additional observations from a re-analysis of the deposited data

How the results depend on the processing

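The count of members at or above the TPM threshold in every library was 8 in the main tables. It was 10 at 0.1 TPM, 6 at 5 TPM, 8 with the other quantifier, 10 on TPM rescaled to protein-coding genes and 8 to 9 with a library left out. Rescaling raises every TPM, because protein-coding genes held only 18.0% to 24.3% of it, while the threshold stayed at 1 TPM. The count of members called variable was 9. It was 9 with DESeq2 size factors, with no count filter and with the other quantifier, 8 with gene totals alone, and 7 to 8 with a library left out. The share called over all genes tested was 68.8%, and under these settings it was 68% with DESeq2 size factors, 43.7% with no count filter, 58.3% with the other quantifier, 74.1% with gene totals alone and 47.5% to 54.7% with a library left out. With gene totals alone Tlr4 had an adjusted p of 0.408. The departure of replicate 2 changed sign for 2 genes near 0. That of Tlr4 was -0.033 with DESeq2 size factors and -0.020 with the other quantifier, against 0.04, and that of Tlr5 was 0.0041 with gene totals alone, against -0.0015. The cause was not tested. Levels moved by more than 1 SD for 5 of 10 genes with the other quantifier, and for 6 of 10 with its isoforms of at least 1000 nt alone. They moved for 10 of 10 genes on TPM rescaled to protein-coding genes and for 3 of 10 on log2(TPM + 1). The rescaling and the larger pseudocount change the unit and raise every value. Moves under them are therefore built in and do not measure how stable a level is. In the main tables, leaving out short isoforms moved only Tlr1. No paired analysis was possible because the series has 1 group. Counts of 22 to 25 limit what can be seen for Tlr5, and 3 libraries of 1 group hold no comparison of conditions.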
